A study of Macaca mulatta with 28 samples.

Results

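The vesicle-associated membrane protein-associated proteins VAPA and VAPB and 5 partners at contact sites of the endoplasmic reticulum (ER) were followed in the ventral tegmental area (VTA), the part of the midbrain where mesolimbic dopamine neurons have their cell bodies. The 7 genes are VAPA, VAPB, OSBP, RMDN3, STARD3, ESYT1 and ESYT2, chosen by name from 16885 gene symbols. They were chosen with earlier results of these data known, so their p-values do not come from a blind choice. All 7 were listed and all 7 passed the filter on low counts, as did 13769 transcripts in all. VAPB was picked because its level was lower in drinkers, so its values in drinkers and controls are a description and carry no test.

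The ER forms close contacts with nearly every other organelle, and lipids and calcium pass across these gaps without vesicles. VAPA and VAPB are tail-anchored proteins of the ER membrane whose cytosolic MSP domain binds proteins that carry an FFAT motif, a short stretch with phenylalanines in an acidic tract. In this way they dock lipid transfer proteins and tethers of other membranes to the ER, and mutations of VAPB cause a familial motor neuron disease. OSBP exchanges cholesterol for a phosphoinositide between ER and Golgi, STARD3 moves cholesterol at late endosomes, and RMDN3 (PTPIP51) ties mitochondria to the ER, and each of them binds the VAP proteins. ESYT1 and ESYT2, the extended synaptotagmins, bridge the ER and the plasma membrane through their own lipid-binding C2 domains.

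The subjects were 28 wild-type rhesus macaques with 1 library each from a bulk tissue punch, 17 that had self-administered alcohol and 11 controls that were yoked for calories or served as housing controls. Drinkers had 4% ethanol and water for 22 hours a day over 12 months and then over further spells of 3 months, with 3 periods of abstinence, and tissue was taken at 30 days of abstinence. By drinking phenotype, 1 animal was Low, 2 were Binge, 5 were Heavy and 9 were Very Heavy. Cohort 1 held 8 drinkers (4 Heavy, 3 Very Heavy and the Low animal) and 8 controls, and cohort 2 held 9 drinkers (6 Very Heavy, both Binge animals and 1 Heavy) and 3 controls. Animals are numbered here within their category. Control numbers 1 to 8 belong to cohort 1 and 9 to 11 to cohort 2.

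Values are estimated counts of 1 transcript per gene, scaled to the mean effective library size and called normalized counts. Totals ran from 12303914 to 27338669 counts per animal, and between 36.4% and 60.6% of them came from 13 mitochondrial transcripts. The summed markers of dopamine neurons, which included the dopamine transporter SLC6A3 and tyrosine hydroxylase TH, were above 0 in every punch but ranged from 44.8 to 1875 CPM (counts scaled to a fixed library total). Between drinkers and controls 0 of 8 marker lists passed a two-sided permutation test (unadjusted p from 0.125 to 0.963), nor did the mitochondrial share (permutation p = 0.684). Fewer cells of a type and less RNA per cell cannot be told apart in such tissue.

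VAPA lies on chromosome 18 (70854873 to 70895622, plus strand, RefSeq annotation of Mmul_10), with up to 8 exons, and VAPB lies on chromosome 10 (93559454 to 93621340, plus strand), with up to 6 exons. The pair are paralogs, so it matters how easily their reads can be separated. In RefSeq the coding sequence of VAPB has 243 codons and the VAPA form closest to it has 294, and 72.4% of 718 aligned coding bases were identical. Only 4 sequences of 31 bases, the word length at which transcript quantifiers commonly index, were present in mRNAs of both genes, among 2284 in VAPA and 8361 in VAPB.

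VAPB was above 0 in every animal. In controls it ran from 617 to 965 normalized counts with a median of 737, and in drinkers from 423 to 741 with a median of 594. The groups overlapped, but 10 of 17 drinkers lay below the lowest control and 16 of 17 below the control median. Means were 591 ± 77.9 (SD, n = 17) in drinkers and 750 ± 96.2 (n = 11) in controls. The log2 fold change was -0.34 ± 0.08 (SE), or 0.788 times the control level. Since VAPB was picked on this contrast, nothing is read from its size.

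The mean of VAPB was lower in drinkers in both cohorts. In cohort 1 the controls ranged from 643 to 965 (median 750) and the drinkers from 423 to 683 (median 578). Of its 8 drinkers 7 lay below every control, and the exception was Heavy animal 3 at 683. The means there were 568 ± 86.5 and 774 ± 97.8 (SD, n = 8 each), a log2 fold change of -0.45 ± 0.10. In cohort 2 the 3 controls had 617, 694 and 745 normalized counts and the 9 drinkers ran from 518 to 741 (median 594), so that 5 of 9 drinkers lay below the lowest control. The log2 fold change in cohort 2 was -0.16 ± 0.13. The difference between the cohorts in the drinker effect was 0.28 ± 0.16 on the log2 scale and rests on the same values, so it is given without a test.

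Within drinkers the categories overlapped in VAPB. The Low animal had 604 normalized counts, the Binge animals 594 and 649, the 5 Heavy animals 487 to 683 (median 552) and the 9 Very Heavy animals 423 to 741 (median 628). The range of the Heavy animals lay within that of the Very Heavy animals. Very Heavy minus Heavy was 0.10 ± 0.12 on the log2 scale with cohort in the model (edgeR, p = 0.411, adjusted p = 0.987), with an interval from -0.15 to 0.36. Between cohorts, with arm in the model, the difference in VAPB was 0.01 ± 0.08 (cohort 2 minus cohort 1, adjusted p = 0.986).

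**Figure D1:**
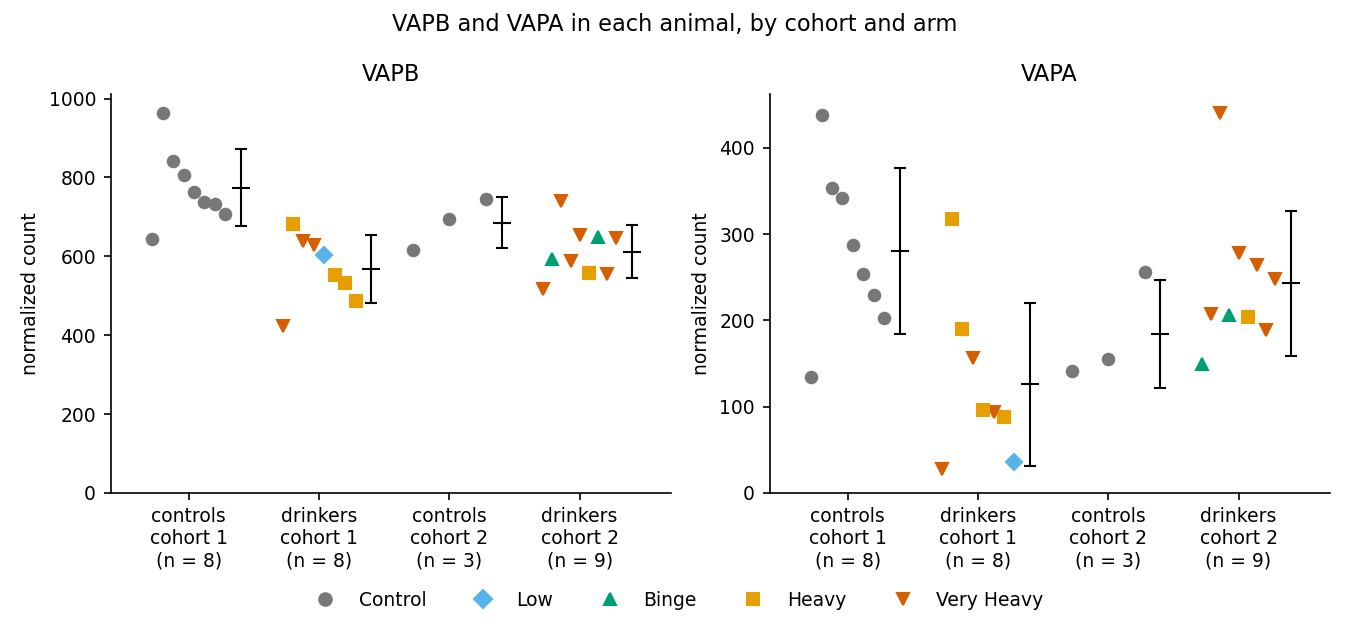
Normalized counts (vertical axes, from 0) of VAPB (left) and VAPA (right) in each of 28 animals, in columns by cohort and arm, with symbols for the drinking category; black bars are the mean and 1 SD of a column. For VAPB 7 of 8 cohort 1 drinkers lie below all cohort 1 controls, while for VAPA the drinkers lie low in cohort 1 (mean 126 against 280) and higher than controls in cohort 2 (mean 243 against 184).

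In the 1 transcript listed per gene, VAPA, the paralog that shares the FFAT-binding domain, varied more than VAPB between animals. The coefficient of variation was 49.3% for VAPA and 17.6% for VAPB, and 57.9% and 18.1% of transcripts had a lower one. VAPA had the lower mean, with 214 normalized counts against 654, and RefSeq lists more mRNAs for it than for VAPB. The part of level and of transcript number in this difference was not tested. VAPA ran from 135 to 438 normalized counts in controls (median 254) and from 27.7 to 441 in drinkers (median 190). The groups overlapped widely, although 5 of 17 drinkers lay below the lowest control and 1 above the highest. Over all animals the log2 fold change was -0.44 ± 0.30 (edgeR, p = 0.156, adjusted p = 1.00). It ran from -0.66 to -0.34 under alternative settings and from -0.56 to -0.33 when 1 animal was left out.

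The cohorts gave fold changes of opposite sign. In cohort 1 the 8 drinkers had 27.7 to 318 normalized counts (median 94.7) and the 8 controls 135 to 438 (median 271). The 5 drinkers below every control were Very Heavy animal 2 at 27.7, the Low animal at 36.3, Heavy animal 2 at 87.9, Very Heavy animal 3 at 93.4 and Heavy animal 1 at 96.0. These are also the 5 lowest of all 28 animals. The means were 126 ± 94.8 and 280 ± 96.2 (SD, n = 8 each). The log2 fold change was -1.16 ± 0.36, or 0.449 times the control level, and did not pass adjustment (edgeR, p = 0.00311, adjusted p = 0.107). Of all transcripts 14.7% had an unadjusted p under 0.05 in that cohort and 0.959% passed adjustment. The latter, 132 transcripts, became 38 to 169 when 1 animal was left out, and fell by more than 1.5 times without Control animals 2, 4, 5 or 8, Very Heavy animals 1 to 4 or Binge animal 2. In cohort 2 the drinkers had 149 to 441 normalized counts (median 207) and the 3 controls 142, 155 and 256, and the log2 fold change was 0.40 ± 0.48 (adjusted p = 1.00). It ran from 0.24 to 0.71 when 1 animal was left out, with the highest without Control animal 9 and the lowest without Control animal 11 or Very Heavy animal 8. The effects differed between cohorts by 1.56 ± 0.61 on the log2 scale (p = 0.0169, adjusted p = 0.375). VAPA was 1 of 6 members other than VAPB with an unadjusted p under 0.05 for this difference, beside 9.62% of all transcripts, and 0 of the 6 passed adjustment, beside 0.0145%. The difference was 1.44 (p = 0.0515) without Control animal 10 and 1.39 (p = 0.0570) without Control animal 11, each 1 of only 3 controls in cohort 2.

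The cohort 1 call on VAPA turned on the test and, among fits that left out 1 animal, on Heavy animal 3 alone. DESeq2 (adjusted p = 0.0427) and limma-voom (adjusted p = 0.0492) put it just past the threshold, as did edgeR without Heavy animal 3, whose 318 normalized counts were the highest of the cohort 1 drinkers (log2 fold change -1.51, adjusted p = 0.0256). The log2 fold change stayed between -1.51 and -1.0 whichever animal was left out. The 2 animals with the least VAPA, with 25 and 32 counts as deposited, had 567 and 533 counts of VAPB, and thus VAPB within the range of the other drinkers.

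The VAPB count exceeded the VAPA count in all 28 animals. The ratio of the deposited counts compares 1 transcript of each gene without length correction, so its size cannot be read as a ratio of the genes. Counts given to other transcripts are not in the values, and RefSeq lists 4 mRNAs for VAPA and 2 for VAPB. In a difference of the ratio between animals, the level of a gene and the share of its listed transcript cannot be told apart. It ran from 1.92 to 4.80 in controls (median 2.91) and from 1.68 to 22.7 in drinkers (median 3.16). In cohort 1 the median was 4.80 in drinkers and 2.86 in controls, and in cohort 2 the order was the other way round, with 2.75 in drinkers and 4.36 in controls. The ratios of 22.7 in Very Heavy animal 2 and 16.7 in the Low animal stood apart from the rest.

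Over the 28 animals the levels of VAPA and VAPB were set against each other. Pearson's r of log2 CPM was 0.505 and Spearman's rho 0.629, r was 0.693 without the 2 animals farthest from the VAPA median, and it was 0.609 in cohort 1 and 0.257 in cohort 2. These values hold the difference between arms on which VAPB was picked, so they are a description and carry no p. After the mean of each animal's own arm and cohort was taken off, r was 0.287 and did not pass the test (permutation p = 0.138, 0.725 adjusted over 21 pairs of members). No pair without VAPB passed adjustment by Pearson's r. The lowest p among those belonged to OSBP and ESYT2, with r = 0.386 (permutation p = 0.0423, adjusted 0.364) and rho = 0.447 (permutation p = 0.0179, adjusted 0.188).

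**Figure D2:**
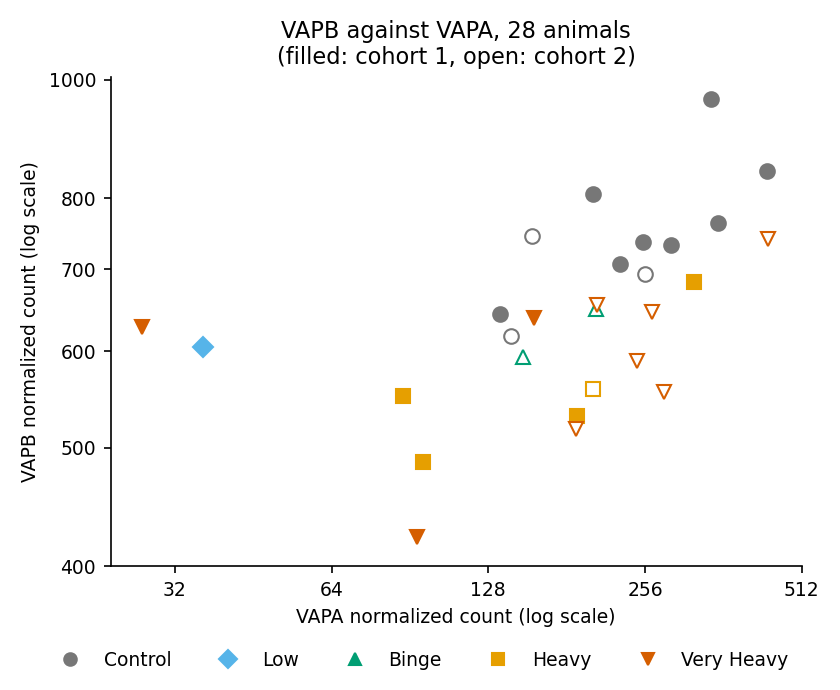
VAPB (vertical axis) against VAPA (horizontal axis) in normalized counts, both on log scales, for 28 animals; symbols give the category, filled for cohort 1 and open for cohort 2. Pearson's r is 0.505, and the points at the far left are Very Heavy animal 2 and the Low animal, with 27.7 and 36.3 normalized counts of VAPA.

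OSBP, the VAP partner that moves sterol between ER and Golgi, was the most even of the members. It had 2097 to 2686 normalized counts in controls (median 2416) and 2322 to 2804 in drinkers (median 2427), with wide overlap. Its coefficient of variation over 28 animals was 5.96%, rank 7 from the lowest of 13769 transcripts, against a median of 38.9% over all. That background holds transcripts with low counts, and 39.5% of them were at 0 in at least 1 animal. RefSeq lists 1 mRNA for OSBP and 2 to 5 for each other member. The part of level and of transcript number in this rank was not tested. The log2 fold change between drinkers and controls was 0.03 ± 0.04 (adjusted p = 1.00), with a 95% interval from -0.05 to 0.11. It was 0.03 ± 0.05 within cohort 1 and -0.01 ± 0.06 within cohort 2.

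Between drinkers and controls ESYT2 had a log2 fold change of -0.10 ± 0.13 (adjusted p = 1.00), with 148 to 390 normalized counts in drinkers (median 275) and 228 to 374 in controls (median 275). The fold change ran from -0.14 to -0.053 when 1 animal was left out and from -0.16 to -0.087 under alternative settings. Among cohort 1 drinkers the Very Heavy animals did not overlap with the Heavy ones. The 3 Very Heavy animals had 148, 163 and 178 normalized counts and were the lowest of all 28 animals, while the 4 Heavy animals had 224, 275, 286 and 356. The Low animal had 287, within the range of the Heavy animals. In cohort 2 the 6 Very Heavy animals had 212 to 390 (median 259) and the only Heavy animal 329, within that range. With cohort in the model Very Heavy minus Heavy was -0.51 ± 0.18 on the log2 scale, or 0.700 times (edgeR, p = 0.00705), which did not pass adjustment (adjusted p = 0.633). It was the only one of 7 members with an unadjusted p under 0.05 in this contrast, beside 6.27% of all transcripts. Without the cohort term the value was -0.29 (p = 0.122). The separation within cohort 1 was picked out after its values were seen. In 2.81% of transcripts the 3 Very Heavy animals of cohort 1 lay below its 4 Heavy animals, and in 0.428% they lay below all other animals.

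**Figure D3:**
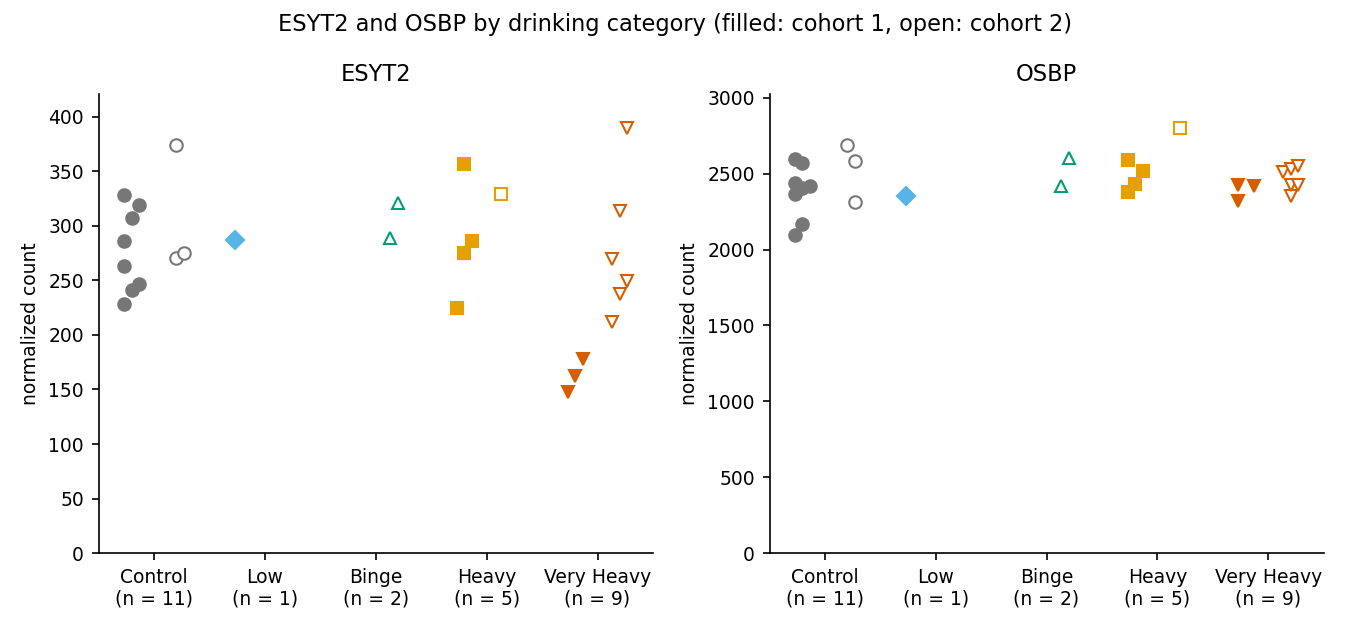
Normalized counts (vertical axes, from 0) of ESYT2 (left) and OSBP (right) by drinking category, filled symbols for cohort 1 and open for cohort 2, each point 1 animal and spread sideways for sight. The 3 filled Very Heavy points of ESYT2 lie at 148 to 178, below all other animals, and all points of OSBP lie between 2097 and 2804.

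RMDN3, ESYT1 and STARD3 were listed at 0 in some animals, so their fold changes carry wide errors. RMDN3, the mitochondrial tether, was at 0 in 2 of 28 animals (Control animal 2 and Very Heavy animal 2) and had 106 to 637 normalized counts in the other 26. ESYT1 was at 0 in 6 animals, of which 5 were cohort 1 drinkers and 1 a cohort 1 control, and had 6.03 to 212 in the other 22. STARD3 was at 0 in 19 animals, 11 of 17 drinkers and 8 of 11 controls, and reached 161 in the Low animal and 125 in Control animal 5. Counts given to other transcripts of these genes are not in the values, and RefSeq lists 5 mRNAs for RMDN3, 5 for ESYT1 and 3 for STARD3. Single gaps of this kind were not rare, since 15.8% of transcripts tested were at 0 in at least 1 animal and had 100 or more normalized counts in another. As many zeros as STARD3 had were less common, with 2.09% of transcripts at 0 in at least as many animals and at 100 or more in another.

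Between drinkers and controls 0 of these 3 passed the test. RMDN3 had means of 263 ± 172 (SD, n = 17) and 322 ± 170 (n = 11), a log2 fold change of -0.29 ± 0.49 with a 95% interval from -1.30 to 0.72. That of RMDN3 ran from -0.43 to -0.18 when 1 animal was left out. ESYT1 had 43.1 ± 38.4 and 63.4 ± 65.0, a log2 fold change of -0.55 ± 0.82 (-2.23 to 1.13). That of ESYT1 ran from -0.71 to -0.16 when 1 animal was left out, nearest to 0 without Control animal 6 and next without Control animal 10, and was -1.11 by limma-voom. STARD3 had 18.8 ± 44.0 and 26.2 ± 49.6, a log2 fold change of -0.48 ± 1.36 (-3.26 to 2.29). Each had an adjusted p of 1.00. The sign for STARD3 turned to 0.20 without Control animal 5 and 0.17 without Control animal 10. Both Binge animals were at 0 for STARD3.

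**Figure D4:**
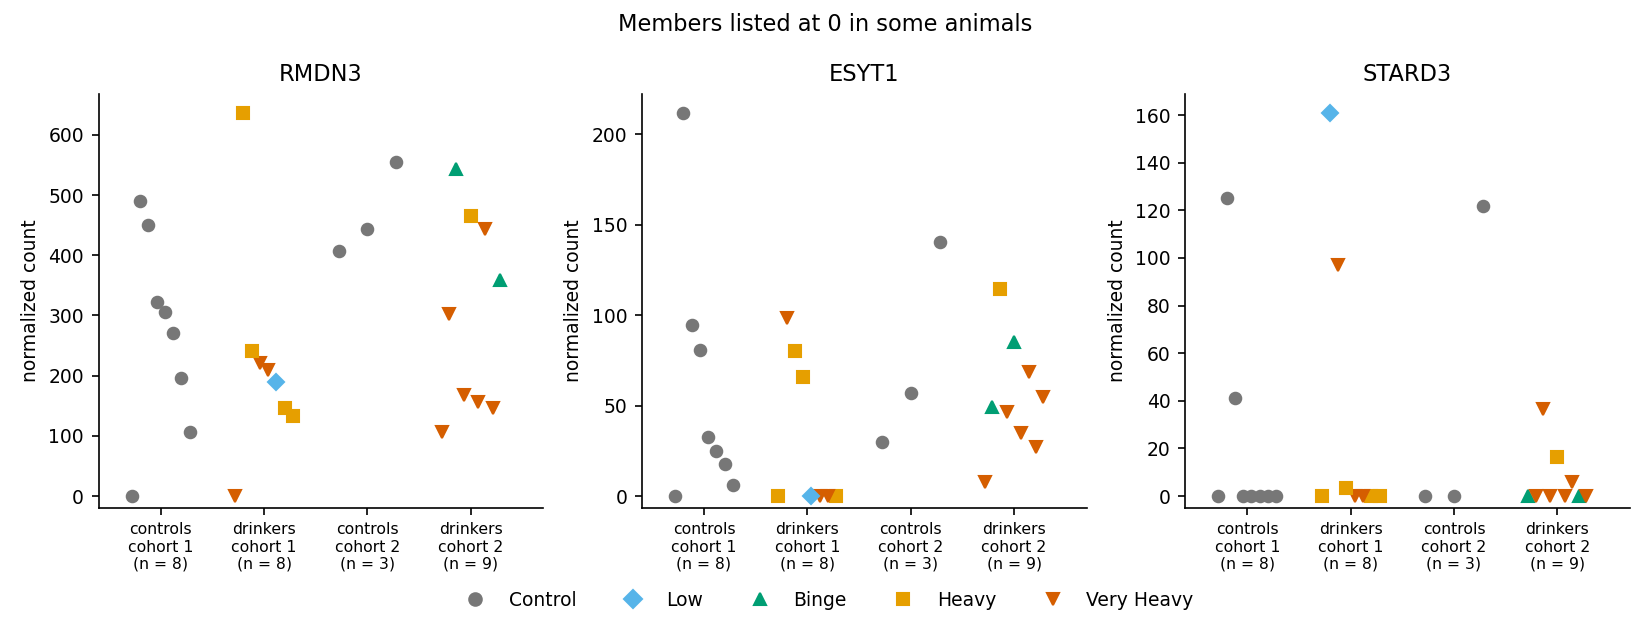
Normalized counts of RMDN3, ESYT1 and STARD3 (left to right, vertical axes) in each animal, in columns by cohort and arm, with symbols for the category. Points on the zero line are animals in which the transcript was listed at 0, which are 2 for RMDN3, 6 for ESYT1 and 19 for STARD3.

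Over all animals no member other than VAPB, for which no test was made, had an adjusted or unadjusted p under 0.05 between drinkers and controls. The background was 0% of 13769 transcripts past adjustment and 4.57% at an unadjusted p under 0.05 by edgeR (347 higher and 282 lower), with 0 past adjustment by limma-voom and 11 by DESeq2. No member separated drinkers from controls without overlap in cohort 1, as 0.109% of transcripts did with drinkers below and 0.0726% with drinkers above. Between cohorts, with arm in the model, 0 of 7 members had an unadjusted p under 0.05, beside 9.8% of all transcripts (0.0436% passed adjustment), and the lowest was that of ESYT2 (0.23 ± 0.13 higher in cohort 2 on the log2 scale, p = 0.0813, adjusted p = 0.580). By limma-voom 1 member, ESYT1, had an unadjusted p under 0.05 there (log2 difference 2.31, adjusted p = 0.209), beside 0.67 by edgeR.

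**Figure D5:**
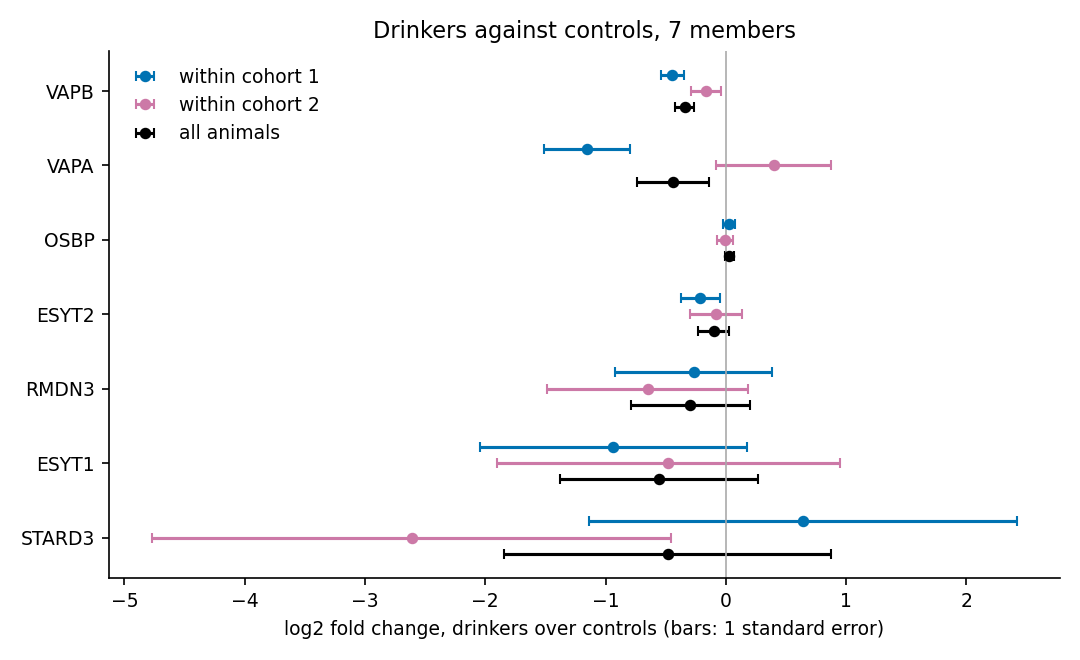
Log2 fold change of drinkers over controls (horizontal axis) for the 7 members, within cohort 1, within cohort 2 and over all animals; points are edgeR estimates and bars 1 SE. VAPB lies below 0 in each, VAPA lies at -1.16 in cohort 1 and 0.40 in cohort 2, OSBP lies within 0.03 of 0, and the bars of RMDN3, ESYT1 and STARD3 are wide.

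Other genes of ER contact sites were listed by the organelle they bridge to, and 58 of 63 could be tested. Between drinkers and controls 0 passed adjustment, and at an unadjusted p under 0.05 there were 2 higher and 3 lower (2.52% and 2.05% of all transcripts), with a median log2 fold change of -0.03 beside 0.00 over all transcripts. MOSPD1, which carries an MSP domain like the VAP proteins, had 164 ± 48.1 normalized counts in drinkers and 131 ± 17.7 in controls (SD, log2 fold change 0.33 ± 0.14, p = 0.0223, adjusted p = 1.00). OSBPL5, an oxysterol-binding relative of OSBP, had 350 ± 70.8 and 407 ± 54.9 (log2 fold change -0.22 ± 0.10, p = 0.0399, adjusted p = 1.00). The other 3 rested on few animals. ITPR2, an ER calcium channel, and ACBD5, a peroxisomal VAP partner, were at 0 in 24 of 28 animals each, and VDAC1, a channel of the mitochondrial outer membrane, was at 0 in 20. All 10 tested genes that link the ER to the plasma membrane had a log2 fold change below 0, from -0.16 to -0.01, and each of these was smaller than its own SE. Of all transcripts 6838 of 13769 lay below 0. Within cohort 1 it was 9 of these 10 genes, beside 7012 of all 13769 transcripts. Within cohort 2 it was 3 of 10, beside 6615 of 13769, with a median of 0.05 beside 0.01 over all transcripts.

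Within cohort 1 the same lists held 6 genes higher and 11 lower at an unadjusted p under 0.05, beside 6.55% and 8.14% of all transcripts. A single one passed adjustment, HSPA9, the mitochondrial chaperone that links calcium channels at ER contacts, which was named after its value was seen. It had 8288 ± 511 normalized counts in cohort 1 drinkers and 7026 ± 570 in cohort 1 controls (SD, n = 8 each, log2 fold change 0.24 ± 0.06, edgeR adjusted p = 0.0470), beside 0.378% of all transcripts higher past adjustment. Its call was lost in 21 of 28 fits that left out 1 animal, with adjusted p between 0.0254 and 0.0946 and log2 fold changes between 0.22 and 0.27. The call was kept without the Low animal, Control animals 1, 10 or 11, Heavy animals 2 or 4, or Very Heavy animal 5. The oxysterol-binding family was singled out among the lists after its values were seen. Of its genes 0 of 10 passed adjustment, while 1 was higher and 5 were lower at the unadjusted threshold. By sign 4 lay above 0 and 6 below, with a median of -0.35 beside -0.01 over all transcripts. The ER to mitochondria list lay the other way in cohort 1, with 11 above 0 and 5 below and a median of 0.22. Within cohort 2 the oxysterol-binding family had 0 genes at the unadjusted threshold in either direction, with 6 above 0 and 4 below and a median of 0.03. Over all the lists there were 0 higher and 1 lower of 58 within cohort 2, beside 1.01% and 0.995% of all transcripts. For the difference between cohorts in the drinker effect 4 of 58 were higher and 3 lower at an unadjusted p under 0.05, beside 679 and 646 of 13769 transcripts, and 0 passed adjustment.

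Between cohorts, with arm in the model, 3 contact genes were higher in cohort 2 and 2 lower at an unadjusted p under 0.05 (5.53% and 4.27% of all transcripts), and 0 of 58 passed adjustment. JPH3, a junctophilin that holds ER to plasma membrane in neurons, had 1660 ± 227 normalized counts in cohort 2 (SD, n = 12) and 1372 ± 267 in cohort 1 (n = 16), a log2 difference of 0.32 ± 0.10 (adjusted p = 0.202). OSBP2 differed by 0.33 ± 0.14 (adjusted p = 0.362) and OSBPL8, which exchanges lipids at the plasma membrane, by -0.22 ± 0.10 (adjusted p = 0.484). OSBPL3 and ACBD5 were at 0 in 19 and 24 animals. Between Very Heavy and Heavy animals 3 were higher and 1 lower at that threshold (3.29% and 2.98% of all transcripts), and 0 passed adjustment. ORAI3, a calcium channel gated from the ER, had 308 ± 61.0 in Very Heavy and 259 ± 29.5 in Heavy animals (0.34 ± 0.14, adjusted p = 0.687), and FIS1, a mitochondrial outer membrane protein, had 1956 ± 425 and 1675 ± 418 (0.33 ± 0.16, adjusted p = 0.780). The log2 difference of FIS1 ran from 0.22 to 0.43 without single Heavy animals. MIGA1 and PITPNM3 were at 0 in 19 and 22 animals.

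The nearest genes on chromosome 10 had log2 fold changes close to 0. RAB22A, a small GTPase of endosomes whose gene ends 23.0 kb before VAPB, had 937 ± 86.3 normalized counts in drinkers and 913 ± 109 in controls, a log2 fold change of 0.04 ± 0.06 (adjusted p = 1.00). STX16, a SNARE of the trans-Golgi that starts 189.5 kb after it, had -0.01 ± 0.10, and NELFCD, a subunit of the negative elongation factor, had -0.01 ± 0.06 (adjusted p = 1.00 each). ANKRD60, C10H20orf85 and APCDD1L were at 0 in 28, 27 and 16 animals and did not pass the filter. The correlation of VAPB with RAB22A, STX16 and NELFCD over animals was 0.09, 0.02 and 0.27.

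The transcripts whose level was most like that of VAPB over the 28 animals, by Pearson's r of log2 CPM among 7685 with a mean of at least 50 normalized counts and no animal at 0, were TRIM32 (r = 0.663), WDR24 (0.654), ABCA2 (0.651), TMEM151A (0.643) and EXTL1 (0.639). The least like were ZIK1 (r = -0.71), ATRX (-0.661) and DNAJC24 (-0.649). After each animal's own arm and cohort mean was removed, all 8 lay nearer to 0. The first 5 then had r = 0.543, 0.474, 0.399, 0.437 and 0.358, and the last 3 had -0.676, -0.427 and -0.601, so that those of ABCA2, EXTL1 and ATRX shrank by more than 1.5 times. The median r over all 7685 was 0.01. VAPA was at rank 71, OSBP (r = -0.08) and ESYT2 (r = 0.05) lay near the median, and the points share the arms that VAPB was picked on. Over the 28 animals VAPB had r = 0.359 with the summed oligodendrocyte markers, 0.318 with endothelial, 0.206 with GABA neuron, -0.0366 with microglia, -0.0878 with glutamate neuron, -0.222 with dopamine neuron and -0.251 with astrocyte markers, and 0.0501 with the mitochondrial share, and the part of these in its level was not tested.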

How the data were processed

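Estimated counts were deposited without normalization. The authors trimmed reads with Trim Galore 0.6.7 and quantified them with Salmon 1.9.0 against Mmul_10, and the submitters' notes also list DESeq2 1.36.0. The table holds 1 transcript per gene symbol for 28 macaques, and 1 entry without a symbol (1.16e-05 percent of counts) was left out. Categories came from the labels and cohorts from the study's source data. Counts were rounded, and the 13769 transcripts that reached 5 counts in 3 or more animals entered edgeR 4.0.16 (TMM, quasi-likelihood, Benjamini-Hochberg adjustment at 0.05, R 4.3.3). Fits over all animals had arm alone, arm by cohort, cohort with arm, or category with cohort. Log2 CPM used a prior count of 2, and correlations used 100000 two-sided permutations (Python 3.11.15). DESeq2 1.42.0 and limma 3.58.1 were alternatives. On simulated counts with 200 transcripts changed by 1 on the log2 scale, the fit of drinkers against controls recovered 146 with 35 other calls, that of the cohorts 155 with 38, and that of Very Heavy against Heavy 95 with 9, each with more other calls than the nominal share. The largest share of identical counts between 2 libraries was 4.45% of transcripts, so each counted as 1 animal. That pair was Very Heavy animal 2 and the Low animal, which also had the least VAPA. The members and gene lists were chosen with earlier results of these data known. Beyond the members, the text names contact site genes with an unadjusted p under 0.05 between drinkers and controls over all animals, between cohorts or between Very Heavy and Heavy (at most 6 in each), 3 neighbours on each side of VAPB, and the 5 most and 3 least correlated transcripts.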

Additional observations from a re-analysis of the deposited data

Results flagged for a closer look

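In groups of 4 to 10 animals, 35 combinations of member and group were searched for an animal far from the others by Dixon's criterion, and 7 were found. Chance flags about 1 in 20 groups (1.75 of 35) where groups are separate and values normal, but these groups share animals and those of STARD3 hold mostly zeros, so the 2 counts cannot be compared. For VAPA, Very Heavy animal 8 had 441 normalized counts, while the other cohort 2 drinkers had 149 to 278. For RMDN3, Heavy animal 3 had 637, while the other cohort 1 drinkers had 0 to 242. For ESYT1, Control animal 6 had 212, while the other cohort 1 controls had 0 to 94.8. STARD3 gave the other 4. Control animal 5 had 125 beside 0 to 41.3 in the other cohort 1 controls, and Very Heavy animal 9 had 36.5 beside 0 to 16.2 in the other cohort 2 drinkers. Heavy animal 5 had 16.2 beside 0 to 3.42 in the other Heavy animals, and Very Heavy animal 1 had 97.0 beside 0 to 36.5 in the other Very Heavy animals. STARD3 was at 0 in 19 of 28 animals.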

How the results depend on the processing

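The log2 fold change of VAPB kept its sign under every alternative run, from -0.35 to -0.32 over all animals, -0.46 to -0.42 within cohort 1 and -0.17 to -0.16 within cohort 2. With single animals left out it ran from -0.37 to -0.30, -0.49 to -0.40 and -0.23 to -0.10, and the difference between the cohorts ran from 0.22 to 0.34. Its Very Heavy minus Heavy value ran from 0.05 to 0.17 without single Heavy animals. Between cohorts its value, near 0, turned to -0.00635 with DESeq2 size factors, to -0.00678 with DESeq2, and to -0.000519 with at least 10 counts in every animal. Members other than VAPB past adjustment within cohort 1 were 0, and 1 (VAPA) by DESeq2 and by limma-voom, and they ran from 0 to 1 without single animals. On variance stabilized counts 1 of 21 pairs, VAPA and VAPB, lay under the threshold, but its r holds the difference between arms on which VAPB was picked and nothing is read from it.

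The sign of STARD3 between drinkers and controls turned to 0.42 with the mitochondrial share as a covariate and ran from -1.40 to 0.20 without single animals, and between cohorts it turned to 1.12 with oligodendrocyte markers as a covariate. Within cohort 1 it ran from -0.55 to 2.41, within cohort 2 from -3.81 to 5.75 and in the difference between cohorts from -5.02 to 5.11 without single animals. The difference between cohorts ran from -0.22 to 1.25 for ESYT1, -0.095 to 0.013 for OSBP and -0.57 to 0.064 for RMDN3, and within cohort 2 the value ran from -0.85 to 0.32 for ESYT1, -0.16 to 0.094 for ESYT2 and -0.068 to 0.043 for OSBP. VAPA between Very Heavy and Heavy turned to 0.13 with limma-voom, 0.036 with the mitochondrial share and 0.24 without the cohort term, and ran from -0.15 to 0.30 without single Heavy animals. DESeq2 called more transcripts past adjustment than edgeR in the contrasts over all animals (11 and 0), within cohort 1 (445 and 132), within cohort 2 (48 and 0), between cohorts (121 and 6), between Very Heavy and Heavy (77 and 0) and in the difference between cohorts (157 and 2). With oligodendrocyte markers as a covariate edgeR called 82 within cohort 1 and 35 between cohorts, where it called 3 with DESeq2 size factors and 10 with at least 10 counts in every animal, and limma-voom called 23. The cause was not tested. HSPA9 within cohort 1 was past adjustment by DESeq2 (adjusted p = 0.00089) and limma-voom (0.0399), but not with no filter on low counts (0.0577) or with oligodendrocyte markers as a covariate (0.0671). Of the neighbours of VAPB, STX16 turned to 0.0044 with limma-voom and NELFCD to 0.011 with oligodendrocyte markers, and without single animals they ran from -0.046 to 0.053 and from -0.034 to 0.021.

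Some correlations of pairs changed sign, and not only those near 0. The pooled r was 0.341 for VAPA and RMDN3, 0.349 for VAPA and ESYT1, 0.249 for VAPA and ESYT2 and 0.221 for ESYT1 and ESYT2. On variance stabilized counts they were -0.035 for VAPA and OSBP, 0.0681 for VAPB and RMDN3, 0.0118 for VAPB and STARD3, 0.0279 for OSBP and RMDN3 and -0.0135 for OSBP and STARD3. In cohort 1 alone they were 0.0802, 0.055, 0.000652 and 0.021 for VAPB with OSBP, RMDN3, STARD3 and ESYT1, and -0.174 and -0.0911 for OSBP with STARD3 and ESYT1. In cohort 2 alone they were -0.569, -0.611, -0.593 and -0.353 for VAPA with OSBP, RMDN3, ESYT1 and ESYT2, -0.35 for VAPB and ESYT2, 0.461 for OSBP and RMDN3 and 0.491 for STARD3 and ESYT1. As deviations from the own arm and cohort they were 0.0906 for VAPB and OSBP, -0.199 for VAPB and ESYT2 and -0.00157 for ESYT1 and ESYT2. Leaving out each animal for the contrasts of drinkers was added after seeing the data, except for the 3 controls of cohort 2 in the fits by cohort. No paired analysis was possible because the labels do not say which drinker each calorically yoked control was matched to, and no number is shared between groups.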
